A study of Mus musculus with 6 samples.

Results

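The genes described here are 49 mouse genes of the extracellular matrix and of mesenchymal cells, chosen by name: collagens, laminins, other matrix proteins, the enzymes that cut, inhibit or cross-link them, and genes known as markers of fibroblasts. All 49 were matched by symbol among the 32285 genes of the table, and 45 of them had enough counts to be tested. They were measured by mRNA sequencing in germline stem cells, the cultured form of mouse spermatogonial stem cells. Every library came from the same wild-type line, carrying GFP on a DBA background, and the groups differed by medium. The control group (n = 3) grew in complete medium and the pyruvate group (n = 3) in a medium named for 8 mM pyruvate; another medium named in the design is not analysed here. Germline stem cells are commonly grown on a layer of embryonic fibroblasts, and whether such feeder cells were present or removed here is not given in the sources used here. In RNA from a whole culture, fewer cells of a type and less RNA per cell cannot be told apart.

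The extracellular matrix is the protein scaffold outside cells. Fibrillar collagens, made in large amounts by fibroblasts, form fibres, while type IV collagen, laminins and nidogens build the basement membrane, the thin sheet on which spermatogonia rest in the testis. Spermatogonial stem cells attach to laminin through integrins, and that binding is used to enrich them.

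Library totals ran from 20918312 to 26413080 counts. Levels are given as CPM, counts scaled to a common library total with TMM factors. A count of 3, taken as the floor, was 0.114 to 0.143 CPM before TMM scaling, and floors cover counting error only. Control replicate 2 stood apart from the other controls on the first principal component, with pyruvate replicate 1 at the opposite end, so results are given with and without control replicate 2. The cells matched their label: all 20 germ cell markers were tested, the highest of them Dazl, and their summed level was 5344 to 6071 CPM in control and 5352 to 5655 CPM in pyruvate medium. Markers of other cell types summed to 222 to 262 and 168 to 217 CPM for Sertoli cells, of which Trf, the iron carrier transferrin, held most. They summed to 2.82 to 4.01 and 2.64 to 2.86 CPM for Leydig cells (led by Star), 79.2 to 81.5 and 87.2 to 108 CPM for endothelium (led by Erg), and 5.18 to 7.83 and 5.64 to 7.25 CPM for macrophages and immune cells (led by Cd68). Ptgds and Fshr of the Sertoli list, Insl3, Lhcgr and Hsd3b1 of the Leydig list, Emcn of the endothelial list, and Adgre1 and C1qb of the immune list had 0 counts in all 6 libraries.

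Several genes typical of fibroblasts were at or near the floor, others were not, and the laminin and nidogen genes were mostly high. Of the 16 fibroblast markers outside the 49 genes, 10 were tested. Their summed level was 115 to 117 CPM in control and 96.5 to 107 CPM in pyruvate medium, most of it from Prrx2, Fstl1, Pdpn and Thy1. Ogn, a small proteoglycan of connective tissue, had 0 counts in every library, and Fap, Islr and Meox2 stayed at or below 0.16 CPM. Of the 49 genes themselves, 8 had a mean of at least 100 CPM, 11 lay from 10 to 100 CPM, 20 from 1 to 10 CPM and 10 under 1 CPM. The 8 were Nid2, Fn1, Lamb1, Col5a1, Lama5, Nid1, Lamc1 and Fbln1. The 10 under 1 CPM were Fbln5, Dcn, Lum, Postn, Ccn1, Ccn2, Loxl2, Twist2, Snai2 and Prrx1, among them the common fibroblast markers Dcn, Lum, Postn and Prrx1. Of genes also typical of fibroblasts, Fn1, Col5a1, Col1a1, Twist1, Pdgfra and Sparc were far above the floor. The genes are called matrix and mesenchymal genes below.

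**Figure D1:**
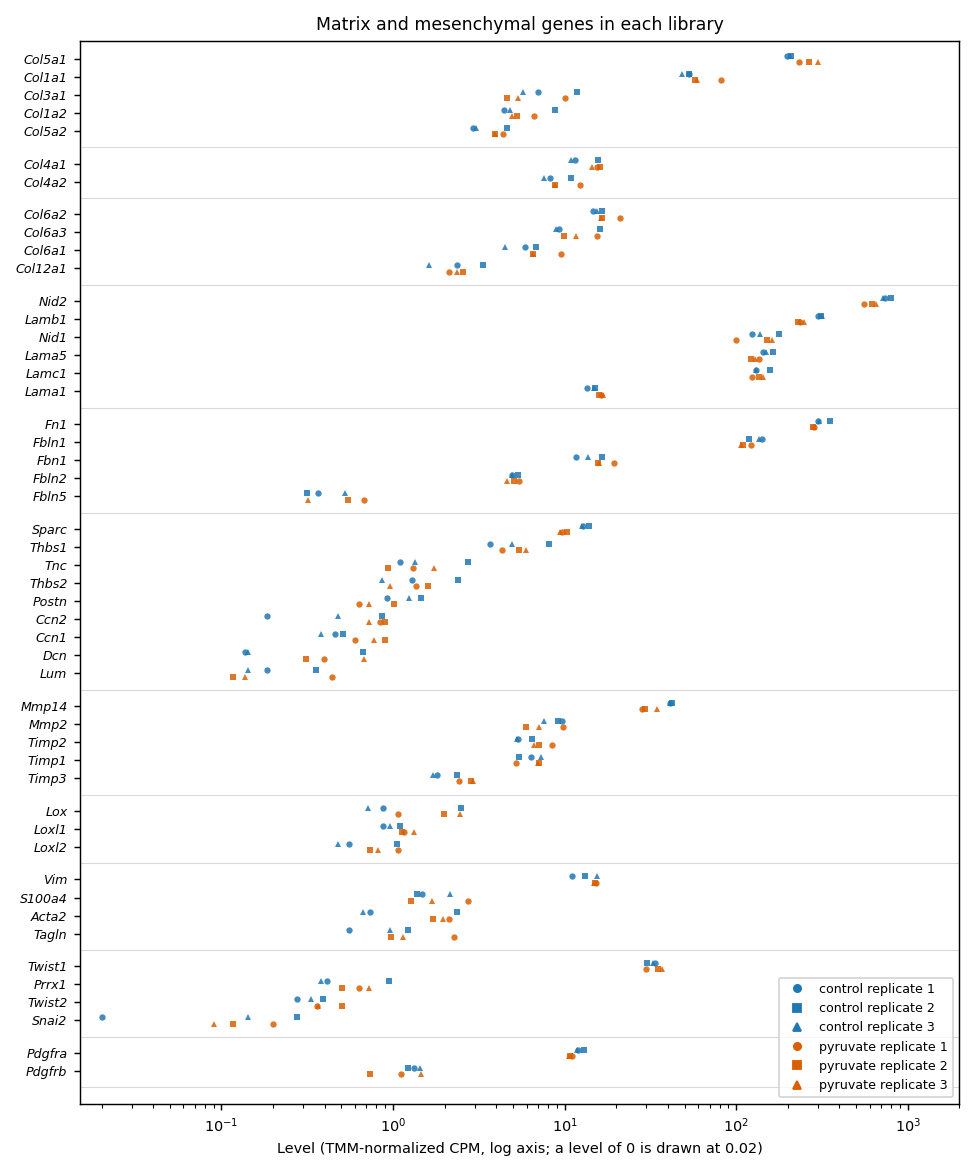
Level of each of the 49 genes in each library, in TMM-normalized CPM on a log axis, grouped by role; blue marks control and orange pyruvate libraries, and marker shapes the replicate numbers. Laminins, nidogens and Fn1 lie mostly above 100 CPM, while Dcn, Lum, Snai2 and Twist2 lie below 1 CPM.

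The question was which of these transcripts differ between cells kept in pyruvate medium and in complete medium. With all libraries, 0 of the 45 tested genes passed edgeR's quasi-likelihood test at an adjusted p under 0.05, where 0.0536% of all 14912 tested genes did (0.0201% higher and 0.0335% lower in pyruvate medium). At an unadjusted p under 0.05 there were 11 of 45, against 14.4% of all tested genes. DESeq2 called 2, Lamb1 and Mmp14, both lower in pyruvate medium, where it called 317 of all 14912 tested genes. With limma-voom 0 were called, where it called 8 of all tested genes. The lowest adjusted p in edgeR was 0.0973, for Lamb1. Fold changes, given as pyruvate minus control on the log2 scale, lay above 0 for 25 genes and below 0 for 20, with a median of 0.08. Over all tested genes 48.1% lay above 0, with a median of -0.01.

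Without control replicate 2, 6 of the 45 passed, 3 higher and 3 lower, where 4.16% of all tested genes did (2.33% higher and 1.82% lower). Col5a1, Col4a1 and Acta2 rose, and Lamb1, Fbln1 and Mmp14 fell. In that fit 33 lay above 0, with a median of 0.24, against 52.4% and a median of 0.01 over all genes. Control replicate 2 was the highest control for 36 of the 45, so leaving it out by itself raises most of these fold changes. Leaving out pyruvate replicate 1 as well, a choice made after seeing the data, gave 15 calls, 8 higher and 7 lower, where 23.7% of all genes were called (12.5% higher and 11.2% lower). The 3 libraries of pyruvate medium did not overlap the 3 controls in 14 of the 45 genes, 31.1%, against 22.5% of all tested genes (11.9% higher and 10.6% lower). Col1a1, Col5a1, Lama1, Ccn1, Timp2, Timp3 and Loxl1 were higher in this sense, and Lama5, Lamb1, Nid2, Fn1, Sparc, Mmp14 and Pdgfra lower.

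**Figure D2:**
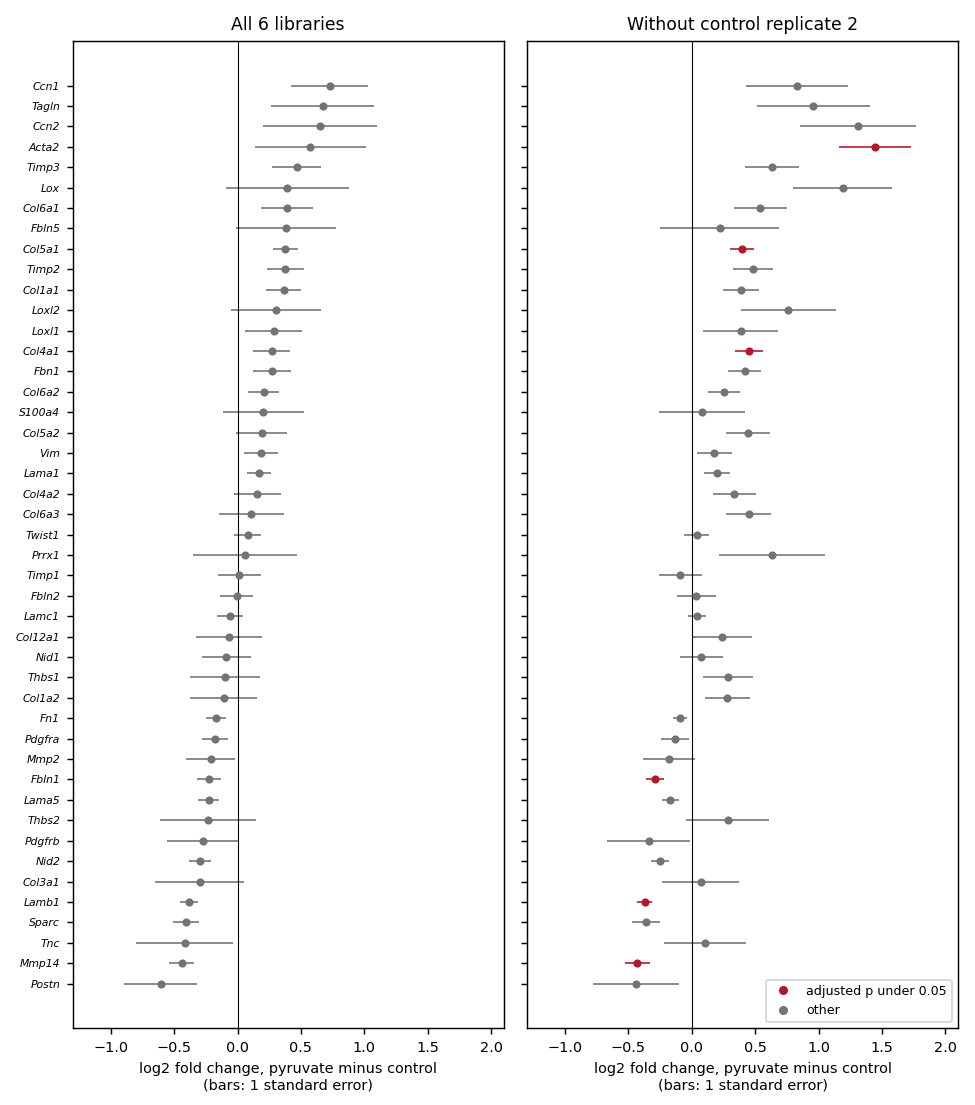
Log2 fold change (pyruvate minus control) of the 45 tested genes with its standard error, with all 6 libraries (left) and without control replicate 2 (right); red marks an adjusted p under 0.05 in edgeR. No gene is red on the left, and Acta2, Col5a1, Col4a1, Fbln1, Lamb1 and Mmp14 are red on the right.

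Laminins are cross-shaped trimers of an alpha, a beta and a gamma chain, and nidogens tie them to type IV collagen. The beta chain gene Lamb1 (ENSMUSG00000002900, chr12:31265234-31329644 in GRCm38) had the lowest p of the 49 genes. Its level was 300.3, 314 and 314 CPM in control replicates 1, 2 and 3 and 237, 229 and 247 CPM in pyruvate replicates 1, 2 and 3. Every pyruvate library thus lay below every control. Means were 309.6 ± 8.09 and 238 ± 8.97 CPM (SD, n = 3 per group), a log2 fold change of -0.38 (SE 0.068, adjusted p = 0.0973). Without control replicate 2, Lamb1 fell, with a log2 fold change of -0.37 (SE 0.059, adjusted p = 0.0117). DESeq2 gave adjusted p = 0.00264 with all libraries.

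Nid2 (ENSMUSG00000021806, chr14:19751265-19811787), nidogen 2, had the highest level of the 49 genes per kilobase of exon. It stood at 736, 794 and 718 CPM in the controls and 558, 617 and 656 CPM in the pyruvate libraries, again without overlap. Its log2 fold change was -0.30 (SE 0.084, adjusted p = 0.187), and -0.25 without control replicate 2 (adjusted p = 0.0749). Exons of Nid2 overlap Rtraf on the opposite strand. Nid1, the other nidogen, stood at 123, 177 and 138 CPM in the controls and 100.3, 150.4 and 162 CPM in the pyruvate libraries, which overlap widely. Lama5, the alpha chain of laminins in many mature basement membranes, stood at 142, 163 and 148 CPM against 136, 123 and 129 CPM, lower in every pyruvate library (log2 -0.23, adjusted p = 0.272). Lama1, the alpha chain of the first embryonic laminin, stood at 13.5, 15.1 and 14.9 CPM against 16.2, 15.9 and 16.8 CPM, higher in every pyruvate library (log2 0.17, adjusted p = 0.464). Lamc1, the shared gamma chain, stood at 131, 158 and 130.2 CPM against 124, 135 and 144 CPM and overlapped between groups. Of these 6 laminin and nidogen genes, 5 had log2 fold changes below 0 with all libraries and 3 without control replicate 2, where Nid1 and Lamc1 lay at 0.08 and 0.04.

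Pairs of related genes, only some of whose products assemble together, were compared as ratios within a library, in CPM per kilobase of exon. Lama5 and Lama1 are both alpha chains, and a laminin trimer holds a single alpha chain. Exon length was the union of all annotated exons of a gene, which can exceed the transcript made. The size of a ratio between genes is therefore approximate, while the same lengths apply in every library. Such ratios do not depend on how libraries are scaled. Lama5 exceeded Lama1 by 8.96, 9.19 and 8.49 times in the controls and by 7.15, 6.56 and 6.52 times in the pyruvate libraries. The ratio of Lamb1 to Lamc1 was 1.91, 1.66 and 2.01 in the controls and 1.60, 1.42 and 1.43 in the pyruvate libraries. Neither ratio overlapped between groups (log2 differences of -0.40 and -0.33). The exact permutation test, 2-sided, gave p = 0.1 for each, the smallest that 3 against 3 libraries allow, and 0.55 after adjustment over the 11 ratios computed. These ratios were chosen after levels had been seen. The ratio of Nid2 to Nid1 ranged from 5.44 to 8.02 and overlapped between groups.

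Type IV collagen, the network collagen of the basement membrane, was lower per kilobase of exon than the laminin chains Lama5, Lamb1 and Lamc1. Col4a1 and Col4a2, whose products join in a trimer of 2 alpha-1 chains and an alpha-2 chain, lie head to head on chromosome 8 (chr8:11198423-11312826 and chr8:11312805-11449287), with 5′ ends that overlap by 22 bases on opposite strands. Col4a1 stood at 11.5, 15.6 and 10.9 CPM in the controls and 15.4, 16.1 and 14.5 CPM in the pyruvate libraries. Control replicate 2 lay among the pyruvate values. The log2 fold change was 0.27 (SE 0.15, adjusted p = 0.443), and without control replicate 2 Col4a1 rose, with a log2 fold change of 0.45 (SE 0.11, adjusted p = 0.0484). Col4a2 stood at 8.23, 10.96 and 7.59 CPM against 12.3, 8.81 and 8.82 CPM (log2 0.16, adjusted p = 0.741). Per kilobase Col4a1 exceeded Col4a2 by 1.11 to 1.62 times over the 6 libraries.

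The fibrillar collagens were led by Col5a1 and Col1a1, while their partner chains were low. Col5a1 (ENSMUSG00000026837, chr2:27886425-28039514), a chain of the minor collagen V that starts fibres, stood at 198, 209 and 206 CPM in the controls and 232, 266 and 299 CPM in the pyruvate libraries, which lay above all controls. Means were 204 ± 5.68 and 266 ± 33.1 CPM, a log2 fold change of 0.38 (SE 0.097, adjusted p = 0.164). It rose when control replicate 2 was left out, with a log2 fold change of 0.40 (SE 0.092, adjusted p = 0.0444). Exons of Col5a1 overlap 2810430I11Rik and Gm13372 on the opposite strand. Col1a1 (ENSMUSG00000001506, chr11:94936224-94953042), the main chain of collagen I, stood at 52.8, 53.0 and 48.5 CPM against 82.0, 57.6 and 58.9 CPM. Pyruvate replicate 1 was the highest by far, and without it the log2 fold change went from 0.36 to 0.19 (adjusted p = 0.294 and 0.599).

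Col1a2, the second chain of collagen I, stood at 4.41, 8.76 and 4.82 CPM in the controls and 6.61, 5.28 and 4.91 CPM in the pyruvate libraries. The protein joins 2 alpha-1 chains with an alpha-2 chain. Per kilobase Col1a1 exceeded Col1a2 by 22.6, 11.5 and 19.0 times in the controls and by 23.5, 20.7 and 22.7 times in the pyruvate libraries. These sizes depend on the exon lengths used, 6563 bases for Col1a1 and 12426 bases for Col1a2. On the same scale Col5a1 exceeded Col5a2, which lay between 2.94 and 4.63 CPM, by 51.0 to 86.3 times. Col3a1, the collagen of soft connective tissue, stood at 7.04, 11.8 and 5.73 CPM against 10.1, 4.62 and 5.32 CPM. For Col1a2, Col3a1 and Col5a2 control replicate 2 was the highest of all 6 libraries and pyruvate replicate 1 the highest of the pyruvate group. Both ratios were lowest in control replicate 2. Exons of Col3a1 overlap Gm47302 on the same strand.

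**Figure D3:**
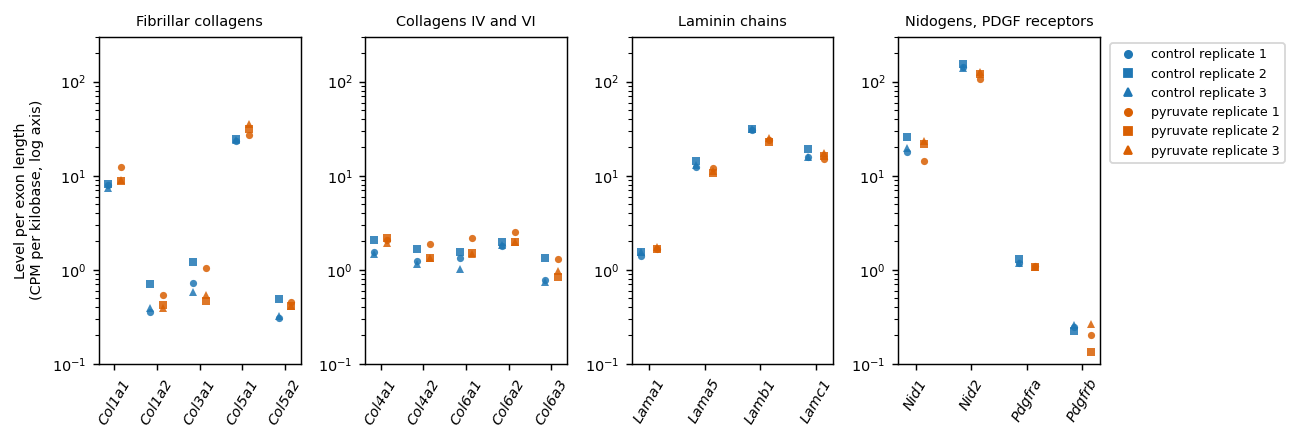
Level per exon length (CPM per kilobase, log axis) of related chains, nidogens and receptors, by library. Blue marks control and orange pyruvate. Col1a1 and Col5a1 lie at least 11.5 times above Col1a2 and 51.0 times above Col5a2, while Col4a1 and Col4a2 lie within 1.62 times.

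Type VI collagen, a beaded filament made of 3 chains, had all of them detected in every library. Col6a2 stood at 14.7, 16.6 and 15.4 CPM in the controls and 20.999, 16.5 and 16.4 CPM in the pyruvate libraries, and Col6a1 at 5.89, 6.83 and 4.49 CPM against 9.56, 6.56 and 6.50 CPM. Their log2 fold changes were 0.20 and 0.39 (adjusted p = 0.496 and 0.438), and without pyruvate replicate 1, the highest library for both, they were 0.08 and 0.19. Col6a3 ranged from 8.93 to 16.1 CPM, with control replicate 2 and pyruvate replicate 1 the highest of their groups. Per kilobase Col6a2 was 1.16 to 1.81 times Col6a1, and Col6a3 was 0.56 to 0.86 times Col6a1. Col12a1, which decorates collagen fibres, ranged from 1.62 to 3.34 CPM and overlapped between groups.

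Fibronectin and the fibulins are glycoproteins that link cells to fibres and the basement membrane. Fn1 (chr1:71585520-71653200) stood at 302, 352 and 304 CPM in the controls and 286, 281 and 285 CPM in the pyruvate libraries. All pyruvate values lay below the controls, by a log2 fold change of -0.17 (SE 0.081, adjusted p = 0.388) that became -0.09 without control replicate 2 (adjusted p = 0.341). Exons of Fn1 overlap Apol7d on the opposite strand. Fbln1 (ENSMUSG00000006369, chr15:85205949-85286535), fibulin 1, stood at 141, 119 and 136 CPM against 121, 110.1 and 107 CPM. Here control replicate 2 was the lowest control and overlapped the pyruvate group. The log2 fold change was -0.22 (SE 0.091, adjusted p = 0.321), and without control replicate 2 Fbln1 fell, with a log2 fold change of -0.29 (SE 0.069, adjusted p = 0.0450). Fbn1, the fibrillin of elastic microfibrils, ranged from 11.7 to 19.4 CPM, Fbln2 from 4.64 to 5.42 CPM and Fbln5 from 0.314 to 0.677 CPM, all with overlap between groups.

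Mmp14 (ENSMUSG00000000957, chr14:54431612-54445364), a membrane-bound protease that cuts collagen and activates Mmp2, was lower in every pyruvate library than in any control. It did not pass edgeR's test with all libraries. It stood at 41.3, 42.2 and 41.3 CPM in the controls and 28.1, 29.3 and 34.5 CPM in the pyruvate libraries, without overlap. Means were 41.6 ± 0.51 and 30.7 ± 3.43 CPM, 1.36-fold apart (log2 -0.44, SE 0.0998, adjusted p = 0.134). Without control replicate 2 it fell, with a log2 fold change of -0.43 (SE 0.098, adjusted p = 0.0389), and DESeq2 gave adjusted p = 0.0201 with all libraries. Mmp2, its substrate, ranged from 5.97 to 9.80 CPM and overlapped between groups. The inhibitors Timp2 and Timp3 were higher in every pyruvate library than in any control. Timp2 stood at 5.38, 6.48 and 5.25 CPM against 8.49, 7.14 and 6.64 CPM (log2 0.38, adjusted p = 0.304). Timp3 stood at 1.79, 2.36 and 1.72 CPM against 2.43, 2.83 and 2.91 CPM (log2 0.47, adjusted p = 0.323), and its exons overlap Syn3, on the opposite strand. Timp1 stood at 6.39, 5.46 and 7.31 CPM against 5.22, 7.10 and 7.001 CPM and overlapped.

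Promoter bases of the RefSeq annotation (GRCm38.p6) were at hand for 31 of the 49 genes. Shown here are the bases before the start of Lamb1, Mmp14 and Col5a1, 3 of the genes that passed without control replicate 2, on the strand of the gene, with each match to the GC box, the letters GGGCGG on either strand, in capitals. Col4a1 is not shown because its window lies in exons of Col4a2. Fbln1 and Acta2, which also passed in that fit, are not shown either. Over the 300 bases counted below, Fbln1 held a GC box match and Acta2 held none. The windows are chr12:31265043-31265233 for Lamb1, ending where its annotated first exon starts, chr14:54431348-54431597 for Mmp14 and chr2:27886175-27886424 for Col5a1.
Lamb1: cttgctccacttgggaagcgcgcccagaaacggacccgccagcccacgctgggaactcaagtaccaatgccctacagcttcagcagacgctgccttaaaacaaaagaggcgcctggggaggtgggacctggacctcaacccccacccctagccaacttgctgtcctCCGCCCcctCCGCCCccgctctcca
Mmp14: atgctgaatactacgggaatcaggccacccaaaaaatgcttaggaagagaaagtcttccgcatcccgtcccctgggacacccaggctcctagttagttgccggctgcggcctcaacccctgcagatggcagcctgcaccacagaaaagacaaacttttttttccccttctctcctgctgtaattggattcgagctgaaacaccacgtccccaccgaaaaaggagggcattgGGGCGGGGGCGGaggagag
Col5a1: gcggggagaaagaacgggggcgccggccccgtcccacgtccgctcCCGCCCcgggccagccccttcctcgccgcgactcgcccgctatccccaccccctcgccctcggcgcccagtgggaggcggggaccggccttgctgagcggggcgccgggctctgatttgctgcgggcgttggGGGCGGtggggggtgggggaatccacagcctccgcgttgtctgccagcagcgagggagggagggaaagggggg
Each of these windows held 2 matches, close together near the start in Lamb1 and Mmp14 and far apart in Col5a1. Col5a1 rose where Lamb1 and Mmp14 fell, without control replicate 2. Over windows of 300 bases, from 250 before to 50 after the start, GGGCGG stood in 22 of the 36 windows of these genes, or 61.1%, against 46.2% of 21263 windows of protein-coding genes and 35.7% of all 32851 windows. CCAAT stood in 38.9% of the 36, against 37.4% of all windows, and TATAAA in 25.0% against 13.6%. GGAATG, the letters bound by TEAD factors, stood in 19.4% against 14.7%, and TGANTCA, those of AP-1, in 2.78% against 7.81%. All were searched on both strands, and none of these motifs contains another. A match describes letters only.

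Matricellular proteins bind the matrix and signal to cells without building it. Sparc (chr11:55394500-55423183), a collagen-binding protein, stood at 12.7, 13.9 and 12.6 CPM in the controls and 9.72, 10.3 and 9.46 CPM in the pyruvate libraries, below every control. Its log2 fold change was -0.41 (SE 0.10, adjusted p = 0.160), and -0.36 without control replicate 2 (adjusted p = 0.0984). Thbs1, thrombospondin 1, stood at 3.68, 8.09 and 4.92 CPM against 4.34, 5.43 and 5.96 CPM, and Tnc, tenascin C, at 1.10, 2.75 and 1.34 CPM against 1.31, 0.931 and 1.73 CPM. In both, control replicate 2 was the highest of the 6 libraries. Without it their log2 fold changes turned from -0.10 and -0.42 to 0.28 and 0.11, with adjusted p = 0.431 and 0.881. Thbs2 ranged from 0.860 to 2.40 CPM, and Postn, periostin, from 0.638 to 1.45 CPM.

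Ccn1 and Ccn2, secreted proteins whose genes respond to serum, TGF-beta and YAP signalling, were low. Ccn1 had 10, 13 and 8 counts in the controls and 15, 23 and 17 in the pyruvate libraries, higher in each of them (log2 0.73, SE 0.31, adjusted p = 0.330). Ccn2 had 4, 22 and 10 counts against 21, 23 and 16, where control replicate 2 matched the pyruvate group. Dcn, decorin, and Lum, lumican, small proteoglycans made in quantity by fibroblasts, did not pass the filter on low counts. Dcn had 3, 17 and 3 counts in the controls and 10, 8 and 15 in the pyruvate libraries, and Lum had 4, 9 and 3 against 11, 3 and 3. In both genes control replicate 2 was the highest control.

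The cytoskeletal genes of contractile fibroblasts, Acta2 and Tagln, were low. Acta2 (ENSMUSG00000035783, chr19:34241090-34255590), smooth muscle actin, stood at 0.736, 2.36 and 0.669 CPM in the controls and 2.11, 1.71 and 1.95 CPM in the pyruvate libraries. Control replicate 2 was above all pyruvate libraries. The log2 fold change was 0.58 (SE 0.44, adjusted p = 0.587), and without control replicate 2 Acta2 rose, with a log2 fold change of 1.45 (SE 0.28, adjusted p = 0.0254). Tagln, an actin-binding protein of smooth muscle, stood at 0.552, 1.22 and 0.955 CPM against 2.27, 0.970 and 1.14 CPM. Pyruvate replicate 1 was its highest library, and without that library its log2 fold change went from 0.67 to 0.20. Exons of Tagln overlap Pcsk7 and Gm48529 on the opposite strand. Smooth muscle and myoid markers outside the 49 genes summed to 64.2 to 74.4 CPM in control and 74.6 to 81.0 CPM in pyruvate medium, most of it from Smtn, with Myocd and Actg2 at or below 0.28 CPM. Their part in the Acta2 values was not tested. Vim, the intermediate filament of mesenchymal cells, stood at 10.99, 13.1 and 15.5 CPM against 15.2, 15.0 and 14.8 CPM, and S100a4, a calcium-binding protein, at 1.47, 1.37 and 2.15 CPM against 2.75, 1.28 and 1.68 CPM. Neither Vim nor S100a4 separated the groups.

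Lysyl oxidases cross-link collagen and elastin. Lox stood at 0.874, 2.47 and 0.716 CPM in the controls and 1.08, 1.98 and 2.45 CPM in the pyruvate libraries, with control replicate 2 the highest of all. Its log2 fold change was 0.39 with all libraries and 1.19 without control replicate 2 (adjusted p = 0.749 and 0.113). Loxl1 stood at 0.874, 1.10 and 0.955 CPM against 1.16, 1.13 and 1.32 CPM, higher in each pyruvate library (log2 0.29, adjusted p = 0.602). Loxl2 ranged from 0.478 to 1.08 CPM with overlap.

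Of the 4 mesenchymal transcription factors, Twist1 was above 1 CPM and the other three were below it. Twist1 (chr12:33957671-33959829) stood at 33.5, 30.2 and 32.7 CPM in the controls and 29.9, 34.8 and 37.2 CPM in the pyruvate libraries (log2 0.08, SE 0.11, adjusted p = 0.760). Its relative Twist2 stood at 0.276, 0.393 and 0.334 CPM against 0.359, 0.504 and 0.364 CPM. Per kilobase Twist1 exceeded Twist2 by 135 to 237 times. Snai2, which drives the change from epithelium to mesenchyme, had 0, 7 and 3 counts in the controls and 5, 3 and 2 in the pyruvate libraries. Prrx1 ranged from 0.382 to 0.943 CPM, highest in control replicate 2, while its relative Prrx2, from the marker list, stood at 37.3 ± 2.65 and 35.9 ± 3.62 CPM. The receptor Pdgfra, for platelet-derived growth factors, stood at 11.9, 13.0 and 11.7 CPM against 11.04, 10.7 and 10.6 CPM, lower in each pyruvate library (log2 -0.18, adjusted p = 0.464). Pdgfrb stood at 1.33, 1.22 and 1.43 CPM against 1.12, 0.737 and 1.45 CPM. Exons of Pdgfra overlap other annotated genes on both strands, and those of Nid1, Fbn1, Thbs1, Tnc, Ccn2, Lox, Loxl2, S100a4 and Twist2 also overlap another gene.

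The order of genes by CPM per kilobase depends on the exon unions used. On that scale Nid2 came first of the 49, with a mean of 131 over the 6 libraries. Fbln1 (28.0), Col5a1 (27.7), Lamb1 (27.6) and Fn1 (25.8) followed, and their order differed between media, without a test. In control it ran Lamb1 (31.2), Fbln1 (30.2), Fn1 (27.3) and Col5a1 (24.1), and in pyruvate medium Col5a1 (31.3), Fbln1 (25.8), Fn1 (24.3) and Lamb1 (24.0). Nid1 (20.4), Twist1 (20.3), Lamc1 (16.6), Lama5 (12.3) and Col1a1 (8.96) came next. The 4 genes at the low end were Snai2 (0.068), Dcn (0.067), Fbln5 (0.066) and Prrx1 (0.054), which are not told apart at these counts.

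Many of the 49 genes also shared a pattern across single libraries, at a higher share than all tested genes. Control replicate 2 was the highest control for 36 of the 45 tested genes, or 80.0%, against 43.0% of all tested genes. It was at least 1.5 times the mean of the other controls (with 0.1 CPM added) in 14 of the 45, or 31.1%, against 9.50% of all tested genes. By mean level, and with genes too low to test included, it was the highest control for 6 of 8 genes at 100 CPM or more, 9 of 11 from 10 to 100 CPM, 16 of 20 from 1 to 10 CPM and 9 of 10 under 1 CPM. Over all tested genes at these levels the shares were 47.1%, 45.2%, 39.3% and 35.2%. Of the 16 fibroblast markers outside the 49 genes it was the highest control for 6, and for the rest it was not. Of the 10 tested it was the highest for 4, near the 43.0% of all tested genes. Among the 6 were Fstl1 (36.4, 45.9 and 37.3 CPM in control replicates 1, 2 and 3) and Ccdc80, which was low (0.184, 0.746 and 0.143 CPM). The sum of the 16, which a few genes dominate, was 115, 117 and 116 CPM. Germ cell markers were highest in control replicate 2 by sum, at 5503, 6071 and 5344 CPM. Gene by gene, it was the highest control for 11 of the 20, and for the rest it was not. Also highest there by sum were epithelial adhesion genes (1004, 1379 and 1058 CPM) and genes of the TGF-beta axis (1243, 1532 and 1222 CPM). These are 2 of the pathway lists described below, and a few genes can dominate such sums. The other pathway lists were also highest there by sum, except collagen modification and secretion (1872, 1717 and 1837 CPM). Pyruvate replicate 1 was the highest pyruvate library for 22 of the 45, or 48.9%, against 40.7% of all tested genes. The part of these libraries' makeup in the differences between media was not tested beyond leaving them out.

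**Figure D4:**
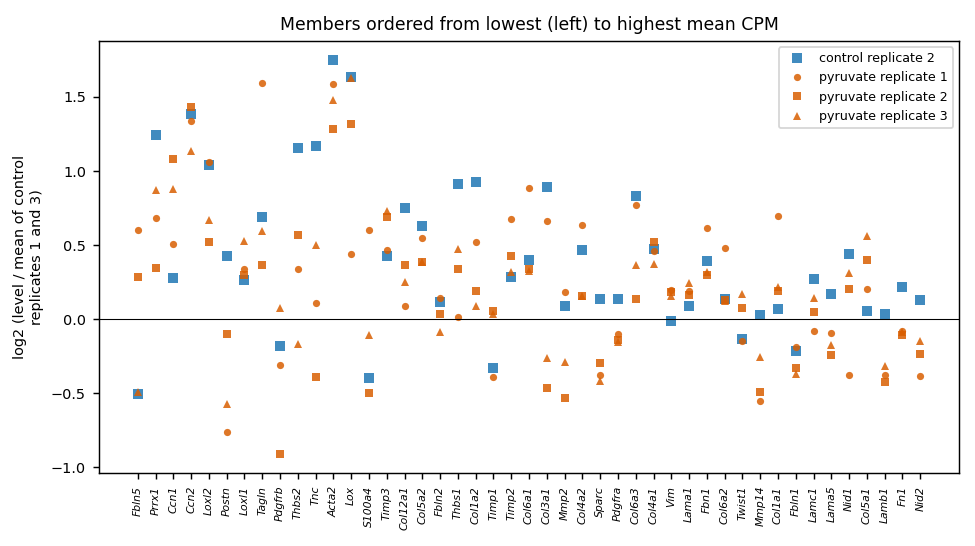
Log2 ratio of each tested gene's CPM in control replicate 2 (blue) and in the 3 pyruvate libraries (orange) to the mean of control replicates 1 and 3, ordered by mean CPM. For Acta2, Lox and Ccn2 control replicate 2 lies with the pyruvate libraries, and for Lamb1, Mmp14 and Col5a1 it lies near 0.

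**Figure D5:**
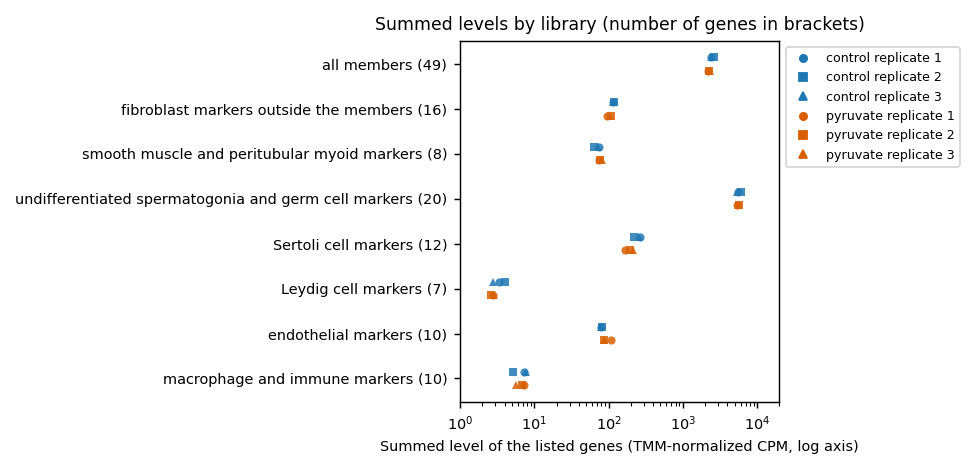
Summed TMM-normalized CPM of the 49 genes and of 7 marker lists in each library, on a log axis; blue marks control and orange pyruvate libraries. Germ cell markers lie between 5344 and 6071 CPM, and Leydig and immune markers at or below 7.83 CPM.

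Other genes of the pathway, 163 in 7 lists, were read from the same fit. Of the 144 tested, 0 passed with all libraries and the median log2 fold change was -0.01. Without control replicate 2, 7 were higher and 3 lower, with 4.16% of all genes called. Among other basement membrane genes, 15 of 22 were tested and 3 rose in that fit: Col18a1, Agrn and Fras1. Col18a1, the collagen from which endostatin is cut, stood at 43.5, 42.6 and 42.4 CPM in the controls and 63.1, 56.8 and 59.3 CPM in the pyruvate libraries (log2 0.48, SE 0.081, adjusted p = 0.0876, and 0.0135 without control replicate 2). Agrn, the proteoglycan agrin, stood at 102 ± 10.5 and 121 ± 2.11 CPM and Fras1 at 37.4 ± 7.14 and 47.6 ± 2.42 CPM (adjusted p = 0.0189 and 0.0195 without control replicate 2). Smoc2 had the highest CPM of this list, at 148 ± 7.34 and 153 ± 10.7 CPM.

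Among 27 matrix receptors, 22 were tested and Itga5 fell without control replicate 2. Itga5, the alpha chain of the fibronectin receptor, stood at 14.7, 12.8 and 17.8 CPM in the controls and 9.20, 9.23 and 9.91 CPM in the pyruvate libraries (log2 -0.67, SE 0.14, adjusted p = 0.119, and 0.0111 without control replicate 2). Sdc4, the syndecan that leads the list in level, stood at 1108 ± 67.4 and 982 ± 14.3 CPM. Of the 26 genes of the TGF-beta axis, all tested, Tgfbr3, a co-receptor, rose without control replicate 2, from 5.75 and 7.02 CPM in control replicates 1 and 3 to 13.5, 12.7 and 10.8 CPM in the pyruvate libraries (adjusted p = 0.0117). With all libraries its log2 fold change was 0.76 (adjusted p = 0.139). Ski had the highest CPM there, at 247 ± 7.77 and 273 ± 4.59 CPM.

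Of 20 genes of the YAP, TAZ and TEAD axis, 19 were tested. Without control replicate 2, Amotl1 rose (log2 0.53, adjusted p = 0.0262) and Tead3 fell (log2 -0.42, adjusted p = 0.0486); with all libraries they stood at 0.31 and -0.39. Tead2 had the highest CPM, at 210.5 ± 21.5 and 224 ± 16.1 CPM. Among 25 other matrix proteases and inhibitors, 21 were tested, and without control replicate 2 Adam12 and Adamts9 rose (log2 1.16 and 0.81, adjusted p = 0.0132 and 0.0298) while Mmp9 fell (log2 -0.46, adjusted p = 0.0403). The sheddase Adam17 led that list in level, at 148 ± 19.1 and 132 ± 7.94 CPM. In collagen modification and secretion, 24 of 25 were tested and 0 passed in either fit, with medians of -0.02 and -0.04. Its gene of lowest p was Pcolce2, an enhancer of collagen processing, at 2.11 ± 0.24 and 1.47 ± 0.17 CPM (log2 -0.51, adjusted p = 0.294). Its gene of highest CPM, P4hb, a subunit of the prolyl hydroxylase, stood at 686 ± 39.0 and 668 ± 30.7 CPM. Of 18 epithelial adhesion genes 17 were tested and 0 passed in either fit, with Jup, plakoglobin, at the lowest p (log2 0.24, adjusted p = 0.305). Tjp1, a tight junction protein, stood at 360, 676 and 390 CPM in the controls, again highest in control replicate 2. Of the marker lists, Thy1, a surface protein of fibroblasts and spermatogonia, fell without control replicate 2 (log2 -0.71, adjusted p = 0.0189), as did Trf (log2 -0.50, adjusted p = 0.0211). The germ cell genes Zbtb16 and Tdrd1 rose in that fit (log2 0.45 and 0.25, adjusted p = 0.00813 and 0.0387). Nanos3 had the lowest p of the germ cell list with all libraries (log2 0.59, adjusted p = 0.218).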

How the data were processed

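Polyadenylated RNA was sequenced with a kit that keeps the strand, per the labels' protocols. The authors deposited raw counts per gene, whole numbers with no normalization. Tools named in the submitters' processing notes are bcl2fastq 2.20, cutadapt 4.6, STAR 2.7.11a and HTSeq 2.0.5, with mm10 as build. No source used here gives the annotation release, strand setting or filters, so counts of genes whose exons overlap another gene (18 of the 49) are uncertain. Another 3 columns were left out because no sample used here matches them, and 0 rows lacked a gene identifier. Symbols (found for 32158 identifiers), positions and exon lengths are from GENCODE M21 on GRCm38.

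In R 4.3.3, edgeR 4.0.16 was run with filterByExpr (minimum count 10), TMM factors, the robust quasi-likelihood test without covariates, and Benjamini-Hochberg adjustment at 0.05 over all 14912 tested genes. Every adjusted p is from this test unless another tool is named. Each SE is the size of the log2 fold change over the root of its F value. Separate cultures are not stated for the replicates, so a p-value reflects only the spread between these libraries, which may be technical. The edgeR fit was tested on simulated counts. The 49 genes, the lists and the tests were chosen with earlier results of these data known. Named with every library's value were genes past the threshold with all libraries or without control replicate 2, the 2 highest per kilobase in each of 11 role groups, and the 6 of largest log2 change with a mean of at least 1 CPM. In each other list the gene of lowest p, the gene of highest CPM and those that passed are named; further genes were chosen after their values were seen. Alternatives were DESeq2 1.42.0, limma-voom (limma 3.58.1), other scalings and filters, a replicate block, and leaving out libraries.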

Additional observations from a re-analysis of the deposited data

How the results depend on the processing

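The 8 genes called over the whole table became 14 with library totals, 15 with upper-quartile scaling, 83 with no filter, 317 with DESeq2 and 265 with the replicate block, and 0 to 625 when a single library was left out, the highest without control replicate 2. Leaving out control replicate 2 and pyruvate replicate 1 together, chosen after seeing the data, gave 3520. Calls among the 49 genes were 0 under the scalings, filters and limma-voom, 2 with DESeq2 and 2 with the replicate block (Lamb1 and Mmp14 in each), 0 to 6 with a library left out, where the 6 came without control replicate 2, and 15 without both libraries. Calls in the 7 pathway lists were 1 with no filter, 5 with DESeq2, 3 with the replicate block, 0 to 10 with a library left out and 51 without both. The median of the tested members ran from 0.02 to 0.24 with a library left out and from -0.03 to 0.17 under the other alternatives. The cause of these shifts was not tested.

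With a library left out, log2 fold changes spanned 0 for Col4a2 (-0.017 to 0.34), Thbs1 (-0.32 to 0.28), Tnc (-0.65 to 0.11), Timp1 (-0.090 to 0.15) and S100a4 (-0.16 to 0.43). Without both libraries Thbs1 stood at 0.40, Tnc at 0.10 and S100a4 at -0.30. The other 20 of the 25 tested genes named by rule kept their direction wherever they were fitted; 6 of them, Acta2, Lox, Loxl1, Pdgfrb, Tagln and Timp3, gave no value with the 5 CPM filter. Of all 45 tested, 10 turned sign without control replicate 2, among them Nid1 (-0.09 to 0.08), Lamc1 (-0.06 to 0.04), Col1a2 (-0.11 to 0.28) and Col3a1 (-0.30 to 0.07). Whether same-numbered libraries were paired is not stated. The correlation of their deviations was 0.31, 0.31 and -0.07 for replicates 1, 2 and 3. Those of replicates 1 and 2 were the highest of all pairs across media, while control replicate 3 correlated best with pyruvate replicate 1 (0.21). Genes under 1 CPM are limited by depth.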
